A study of Canis lupus familiaris with 12 samples.

Results

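The desmosome genes described here are 10 genes that encode desmosomal cadherins, plaque proteins of the armadillo family, and plakins. They are DSG2, DSC2, DSC3, JUP, PKP2, PKP3, PKP4, DSP, PPL, and EVPL, chosen by name, and all 10 were found among the 13672 genes listed. Their mRNA was quantified by RNASeq in MDCKII, an epithelial line from dog kidney, in 12 libraries of 4 genotypes with 3 libraries each. WT cells were compared with cells KO for CGN (line 1G8), for CGNL1 (line 22), and for both genes (double-KO, line 21D3), and none of them were treated. Each KO genotype comes from 1 line made by CRISPR/Cas9 gene editing, so the effect of a genotype and that of its line cannot be told apart. CGN encodes cingulin and CGNL1 encodes paracingulin, cytoplasmic proteins of tight junctions and, for paracingulin, also of adherens junctions. Whether libraries of a genotype came from separate cultures is not given in the sources used here, and p-values measure only the spread between these libraries.

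Desmosomes are adhesive junctions that link the intermediate filaments of neighboring epithelial cells. Desmogleins (DSG) and desmocollins (DSC) are the transmembrane cadherins that adhere outside the cell. Inside the cell, plakoglobin (JUP) and plakophilins (PKP) bind the cadherin tails, and desmoplakin (DSP) ties this plaque to keratin filaments. In simple epithelia such as kidney tubules, DSG2 and DSC2 are the widespread cadherins, whereas DSG3 and DSC3 are best known from stratified epithelia.

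Libraries held between 16837532 and 30086076 reads, and levels are given in counts per 1000000 reads (CPM). CGN was between 199 and 233 CPM in WT and between 39.7 and 56.5 CPM in the genotypes KO for it, and CGNL1 was between 7.74 and 12.3 CPM in WT and between 1.11 and 3.02 CPM in the genotypes KO for it. CGNL1 was also lower in CGN-KO cells, at 5.04 to 6.92 CPM (-0.61 on the log2(CPM + 1) scale, limma adjusted p = 0.0201). This call was lost without WT replicate 1 or CGN-KO replicate 2 or 3 (adjusted p up to 0.0988). Comparisons below that use CGN-KO cells thus involve lower CGNL1 mRNA as well. All 9 epithelial markers were listed, with a summed level between 7340 and 8129 CPM, whereas 4 of 11 mesenchymal, 1 of 3 immune, and 1 of 3 endothelial markers were listed. The summed mesenchymal level was 416 to 464 CPM in WT, 683 to 962 CPM in CGN-KO, 534 to 612 CPM in CGNL1-KO, and 826 to 915 CPM in double-KO cells. FN1, which encodes fibronectin and is also made by epithelial cells, accounted for most of it, with means of 440, 848, 574, and 856 CPM in the same order. VIM, which encodes vimentin, is counted below with the keratins and not in this sum. Its means were 3227, 3059, 2718, and 3452 CPM in the same order, and none of its changes against WT passed. CDH2, COL1A1, COL1A2, and PDGFRB were among the markers not listed. The part of these differences in the results below was not tested.

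All 10 desmosome genes passed the filter on low values, more than 1 CPM in at least 3 libraries. Their summed level was 1830 ± 87.1 CPM (SD, n = 3) in WT, 1930 ± 32.9 in CGN-KO, 1823 ± 56.2 in CGNL1-KO cells, and 1901 ± 30.9 in double-KO cells, and the KO ranges overlapped the WT range of 1755 to 1925 CPM. The individual genes moved in opposite directions. 7 of the 10 differed among the 4 genotypes by limma's moderated F test, beside 29.9% of the 12650 genes tested. They were DSC2, DSC3, PKP3, PKP4, DSP, PPL, and EVPL, with adjusted p between 0.000217 (PKP4) and 0.0270 (PPL). DSG2, JUP, and PKP2 did not pass, with adjusted p = 0.662, 0.413, and 0.236. Since these are bulk libraries, fewer cells that express a gene and less of its RNA per cell cannot be told apart.

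**Figure D1:**
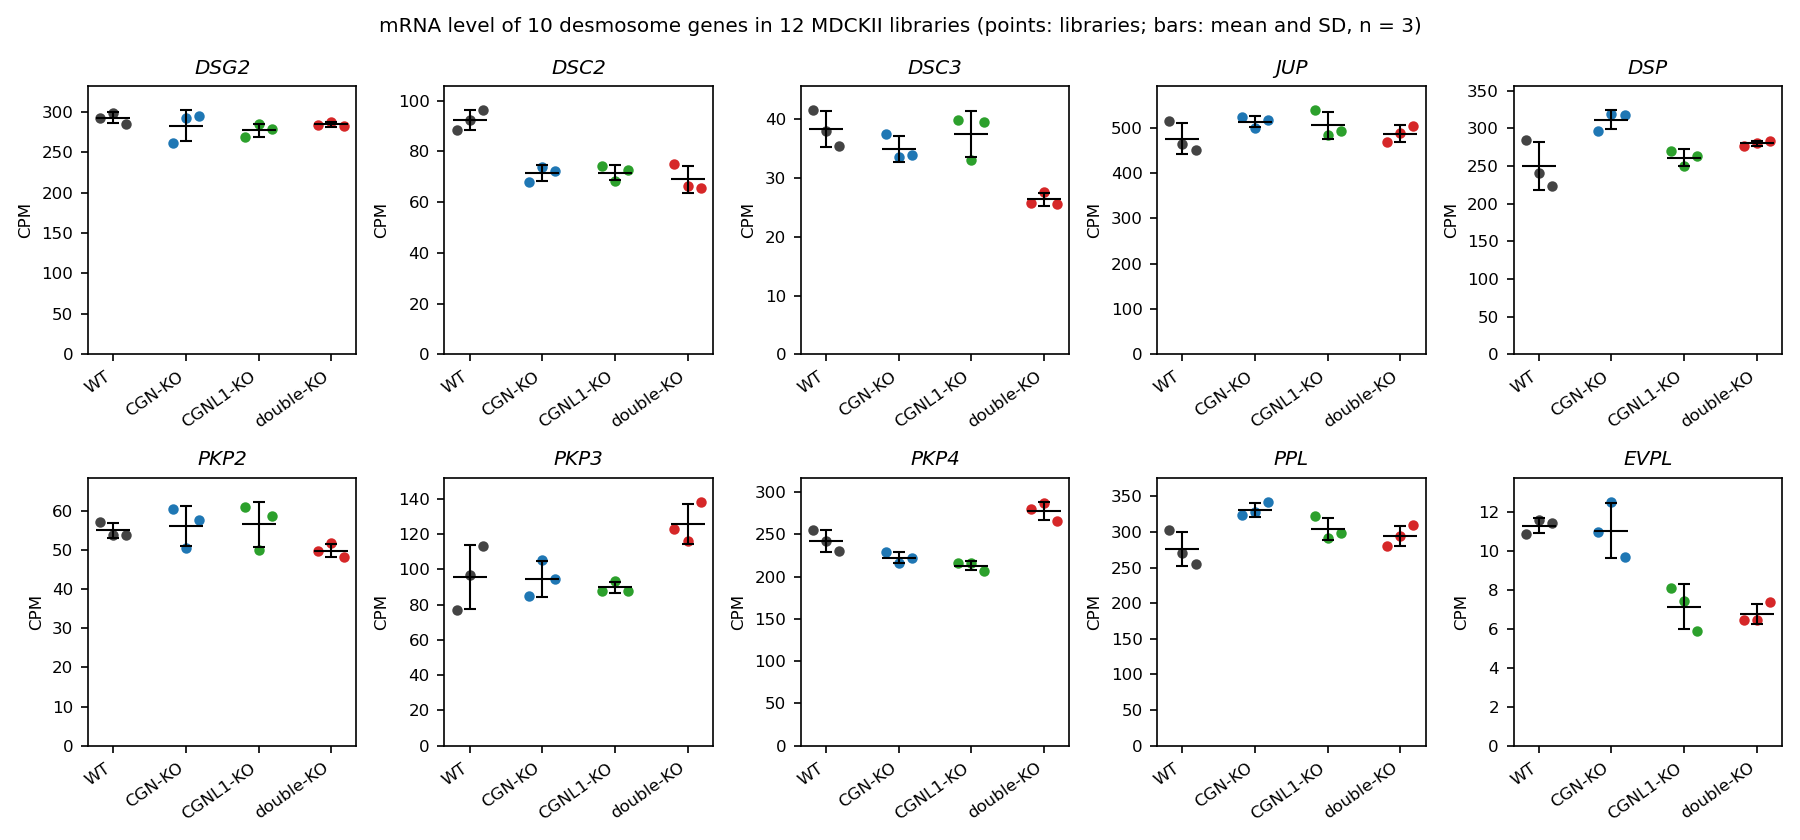
Level of each desmosome gene in CPM (vertical axis, starting at 0) in each library of the 4 genotypes (horizontal axis). Points are libraries, and bars mark the mean ± SD of 3 libraries. The DSC2 points of all 9 KO libraries lie between 65.7 and 75.0 CPM, below the WT points at 88.3 to 96.1 CPM, and the DSG2 points of all genotypes lie between 261 and 299 CPM.

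Among the cadherins, DSC2 was lower in all 3 KO genotypes, DSC3 was lower in double-KO cells, and DSG2 passed in no comparison. DSC2, the widespread desmocollin, was at 88.3, 92.3, and 96.1 CPM in WT replicates 1, 2, and 3, and at 68.0, 73.9, and 72.4 CPM in the CGN-KO replicates. It was at 74.1, 68.4, and 72.5 CPM in the CGNL1-KO replicates, and at 75.0 CPM in the unnumbered double-KO library and 66.2 and 65.7 CPM in double-KO replicates 2 and 3. Thus each of the 9 KO values lay below each of the 3 WT values, and the KO genotypes overlapped with each other. The log2 change against WT was -0.36 for CGN-KO (SE 0.063, adjusted p = 0.000598), -0.36 for CGNL1-KO (SE 0.063, adjusted p = 0.00119), and -0.42 for double-KO cells (SE 0.063, adjusted p = 0.000138), all on the log2(CPM + 1) scale. The means changed by -22.6%, -22.3%, and -25.2%. These 3 comparisons share the WT libraries and are thus not independent. WT samples are numbered apart from all KO samples in the deposit. Whether WT and KO libraries were prepared together is not given in the sources used here. A change shared by the KO genotypes and a difference in preparation thus cannot be told apart.

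DSC3, a desmocollin best known from the deep layers of stratified epithelia, was at 41.5, 38.0, and 35.5 CPM in WT and at 25.8 (unnumbered), 27.7, and 25.7 CPM in double-KO cells. It ranged from 33.6 to 37.5 CPM in CGN-KO and from 33.1 to 39.9 CPM in CGNL1-KO cells. The double-KO values were below those of all other libraries, and both single KO genotypes overlapped with WT. In double-KO cells the log2 change was -0.52 (SE 0.082, adjusted p = 0.000223), and the mean fell by 31.1%. In CGN-KO and CGNL1-KO cells it was -0.13 (95% confidence interval -0.30 to 0.049) and -0.03 (-0.21 to 0.14), neither of which passed.

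DSG2, the widespread desmoglein, had means of 293 ± 6.86 CPM in WT, 283 ± 18.8 in CGN-KO, 278 ± 8.03 in CGNL1-KO cells, and 284 ± 2.67 in double-KO cells. Its log2 changes against WT were -0.05 (95% confidence interval -0.16 to 0.063), -0.08 (-0.19 to 0.037), and -0.04 (-0.15 to 0.073). Each interval contains 0, and the bounds leave room for a fall of at most 0.19 on the log2 scale. The CGNL1-KO values, 269 to 285.0 CPM, lay just below the WT values of 285.5 to 299 CPM, but the change did not pass (adjusted p = 0.445).

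Within the armadillo group, PKP3 and PKP4 were higher in double-KO cells, whereas JUP and PKP2 did not pass in any comparison with WT. PKP4, a relative of the plakophilins and of p120-catenin that is found at both desmosomes and adherens junctions, was at 256, 242, and 230 CPM in WT replicates 1, 2, and 3. In double-KO cells it was at 281 (unnumbered), 287, and 266 CPM, above all other libraries. In CGNL1-KO cells it was at 216, 216, and 207 CPM, below all WT libraries. The log2 change was 0.20 in double-KO (SE 0.053, adjusted p = 0.0113) and -0.18 in CGNL1-KO cells (SE 0.053, adjusted p = 0.0349). In CGN-KO cells, at 216 to 230 CPM, it was -0.12 (adjusted p = 0.122). The CGNL1-KO call passed under 15 of 23 alternative settings, with adjusted p up to 0.137 (without WT replicate 1). It was lost without any one of WT replicate 1 or 2, CGN-KO replicate 3, CGNL1-KO replicate 2 or 3, or the unnumbered double-KO library, and with only these genotypes in the fit. The double-KO call was lost without WT replicate 3 (adjusted p = 0.0522) and without double-KO replicate 2 (adjusted p = 0.0590).

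PKP3, a plakophilin of the desmosomal plaque, was at 77.2, 96.9, and 113 CPM in WT and at 123 (unnumbered), 116, and 138 CPM in double-KO cells. The lowest double-KO value, 116 CPM, lay just above the highest WT value, 113 CPM, and the spread of PKP3 within WT was the widest of the 10 genes, with a coefficient of variation of 18.8%. Its log2 change in double-KO cells was 0.40 (SE 0.11, adjusted p = 0.0115). It was 0.26 without WT replicate 1 (adjusted p = 0.0598) and 0.33 without double-KO replicate 3 (adjusted p = 0.0710), so the call depends on these libraries. In CGN-KO and CGNL1-KO cells PKP3 ranged from 84.8 to 105 CPM and from 87.8 to 93.5 CPM, within the WT range.

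JUP, which encodes plakoglobin and belongs to both desmosomes and adherens junctions, had means of 476 ± 34.0 CPM in WT, 514 ± 13.1 in CGN-KO, 505 ± 29.0 in CGNL1-KO cells, and 487 ± 18.1 in double-KO cells. The 95% confidence intervals of its log2 changes were -0.017 to 0.24, -0.042 to 0.22, and -0.094 to 0.16. PKP2, the plakophilin of simple epithelia and heart muscle, had means of 54.9 ± 1.80, 56.1 ± 5.13, 56.5 ± 5.74, and 49.8 ± 1.76 CPM in the same order. Its 3 double-KO values, 48.1 to 51.6 CPM, lay below the WT values of 53.9 to 57.0 CPM, but the log2 change of -0.14 did not pass (95% confidence interval -0.30 to 0.026, adjusted p = 0.206).

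Among the plakins, DSP and PPL were higher in CGN-KO cells, and EVPL was lower in CGNL1-KO and double-KO cells. DSP, the protein that anchors keratin filaments to the plaque, was at 285, 241, and 224 CPM in WT replicates 1, 2, and 3 and at 297, 319, and 318 CPM in the CGN-KO replicates. WT replicate 1 stood close to the CGN-KO values, and the genotypes did not overlap. The log2 change was 0.32 (SE 0.071, adjusted p = 0.00442), and the mean was 24.4% higher. DSP was at 271, 250, and 264 CPM in CGNL1-KO cells, with a log2 change of 0.07 (adjusted p = 0.633). It was at 276, 281, and 283 CPM in double-KO cells, with a log2 change of 0.17 (adjusted p = 0.0909) that passed without WT replicate 1 (0.27, adjusted p = 0.00437), with chromosome medians taken out (0.20, adjusted p = 0.0434), and under a replicate block (0.21, adjusted p = 0.0387).

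PPL, which encodes periplakin, a plakin first described in the cornified envelope of skin, was at 302, 271, and 255 CPM in WT and at 323, 328, and 342 CPM in CGN-KO cells. The genotypes did not overlap, and the log2 change was 0.26 (SE 0.064, adjusted p = 0.00793). In CGNL1-KO (304 ± 15.9 CPM) and double-KO cells (294 ± 14.4 CPM) its values overlapped with those of WT (276 ± 23.8 CPM), with log2 changes of 0.14 (adjusted p = 0.203) and 0.09 (adjusted p = 0.301).

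EVPL encodes envoplakin, the partner of periplakin in the cornified envelope, and rested on the fewest reads, 110 to 333 per library. It was at 10.9, 11.6, and 11.5 CPM in WT and at 11.0, 12.5, and 9.68 CPM in CGN-KO cells. It was at 8.13, 7.45, and 5.89 CPM in CGNL1-KO and at 6.49 (unnumbered), 6.48, and 7.39 CPM in double-KO cells. The 6 values of CGNL1-KO and double-KO cells thus lay below all 6 values of WT and CGN-KO cells. The log2 change against WT was -0.61 in CGNL1-KO (SE 0.12, adjusted p = 0.00238) and -0.66 in double-KO cells (SE 0.12, adjusted p = 0.000482), and the means changed by -36.8% and -40.0%. In CGN-KO cells it was -0.04 (95% confidence interval -0.28 to 0.21).

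**Figure D2:**
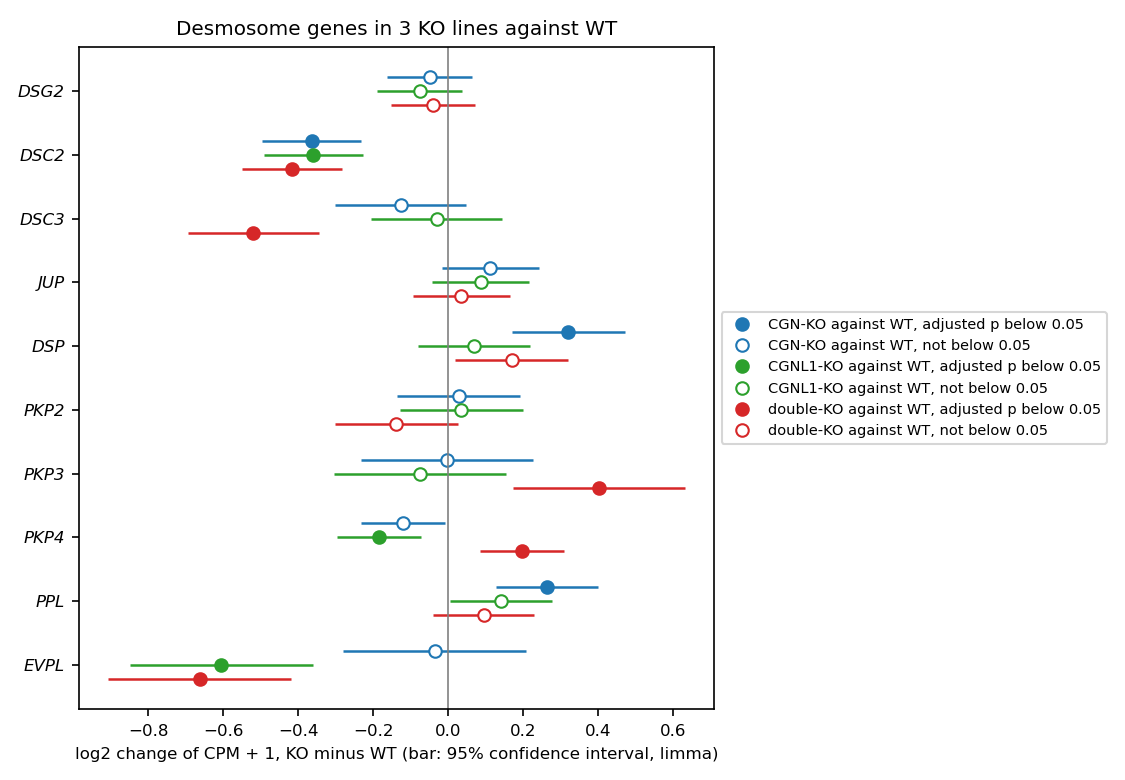
Log2 change of each desmosome gene against WT (horizontal axis, log2(CPM + 1) scale) in CGN-KO, CGNL1-KO, and double-KO cells, with bars for the 95% confidence interval and filled symbols for adjusted p below 0.05. DSC2 lies below 0 in all 3 genotypes, EVPL in CGNL1-KO and double-KO cells, and DSP and PPL lie above 0 with filled symbols in CGN-KO cells.

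Counted per comparison, 2 of 10 desmosome genes were higher and 1 was lower in CGN-KO than in WT cells, beside 11.2% and 7.87% of all genes tested. In CGNL1-KO cells 0 were higher and 3 were lower, beside 6.81% and 3.49% of all genes. For the 0 higher, edgeR and DESeq2 on the recovered reads also gave 0, and 1 gene (PPL) was higher at an unadjusted limma p below 0.05. In double-KO cells 2 were higher and 3 were lower, beside 14.8% and 11.5% of all genes. The largest change among the 10, that of EVPL in double-KO cells, was below 2-fold. None of the 10 thus met the 2-fold criterion that 1.31%, 0.617%, and 1.41% of all genes met in CGN-KO, CGNL1-KO, and double-KO cells. DSG3, a desmosomal cadherin outside the 10 that is described below, met it in double-KO cells (-1.01, adjusted p = 0.000113). Its change ranged from -1.09 to -0.95 when single libraries were left out. The median log2 change of the 10 genes was -0.02, -0.05, and -0.0026, beside -0.0039, -0.0031, and -0.00036 for all genes. With so few genes, no difference between these shares and those of all genes was tested.

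The KO genotypes were also compared directly. Between CGN-KO and CGNL1-KO cells, EVPL passed, beside 5.19% of all genes, and was higher in CGN-KO cells by 0.57 on the log2 scale (adjusted p = 0.00669). DSP was higher in CGN-KO cells by 0.25, just short of the threshold (adjusted p = 0.0515). Both genes passed in a fit blocked by replicate number (limma, adjusted p = 0.00165 for EVPL and 0.0143 for DSP). That fit also held WT and numbered double-KO libraries and left out the unnumbered one. Whether the numbers pair libraries is uncertain. By deviations from genotype means, CGN-KO replicate 3 correlated less with CGNL1-KO replicate 3 (0.179) than with CGNL1-KO replicate 2 (0.320). The block thus cannot settle the DSP difference. With only these 2 genotypes in the fit, EVPL did not pass (adjusted p = 0.0624).

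Double-KO cells differed from CGN-KO cells in 4 desmosome genes, beside 8.84% of all genes. DSC3 was lower by 0.39 on the log2 scale (adjusted p = 0.00676), EVPL was lower by 0.63 (adjusted p = 0.00288), PKP3 was higher by 0.41 (adjusted p = 0.0280), and PKP4 was higher by 0.32 (adjusted p = 0.00152). From CGNL1-KO cells they differed in 3 genes, beside 14.4% of all genes, with DSC3 lower by 0.49 (adjusted p = 0.000897), PKP3 higher by 0.48 (adjusted p = 0.00720), and PKP4 higher by 0.38 (adjusted p = 0.000159). DSC2 did not pass between any pair of KO genotypes, and the 95% confidence interval of its log2 difference between double-KO and CGN-KO cells was -0.18 to 0.081.

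The double-KO change was then compared with the sum of both single KO changes. 3 desmosome genes passed, beside 10.3% of all genes. For PKP4 the double-KO change exceeded the sum by 0.50 (SE 0.075, adjusted p = 0.000376), since it was lower than WT in both single KO genotypes by mean and higher in double-KO cells. For DSC2 the difference was 0.31 (SE 0.089, adjusted p = 0.0363), as its 3 falls were of similar size and the double-KO fall was thus smaller than the sum. For PPL it was -0.31 (SE 0.090, adjusted p = 0.0382). DSC3 (-0.36, adjusted p = 0.0590) and PKP3 (0.48, adjusted p = 0.0571) fell just short. PKP3 passed with edgeR (adjusted p = 0.0494) and DESeq2 (adjusted p = 0.0247), and DSC3 with DESeq2 (adjusted p = 0.0390). Under the replicate block, which leaves out the unnumbered double-KO library, DSC2 (adjusted p = 0.0836) and PPL (adjusted p = 0.0669) did not pass and PKP3 did (0.42, adjusted p = 0.0259). With chromosome medians taken out, PKP3 was at 0.32 and did not pass (adjusted p = 0.203). The DSC2 call held in 5 and the PPL call in 4 of the 12 fits without 1 library, with adjusted p up to 0.108 and 0.111, both without the unnumbered double-KO library. Both calls were also lost without WT replicate 2 or 3, CGN-KO replicate 3, or CGNL1-KO replicate 3, DSC2 without CGN-KO replicate 1 or CGNL1-KO replicate 2, and PPL without CGN-KO replicate 2, CGNL1-KO replicate 1, or double-KO replicate 2. The number of genes that passed was 1 without any one of WT replicate 2, WT replicate 3, CGN-KO replicate 3, CGNL1-KO replicate 3, or the unnumbered double-KO library, and 6 without WT replicate 1.

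Ratios between genes of 1 group within a library do not depend on how libraries are scaled. The ratio of DSG2 to DSC2 reads was 3.18 ± 0.18 (SD, n = 3) in WT, 3.96 ± 0.12 in CGN-KO, 3.88 ± 0.27 in CGNL1-KO cells, and 4.14 ± 0.31 in double-KO cells, and no KO library (3.63 to 4.34) overlapped with WT (2.97 to 3.32). Among the 4 genotypes it differed by an exact permutation test (which has no direction, p = 0.00805, adjusted p = 0.0181 over 9 ratios). The ratio of DSG2 to DSC3 was 7.66 ± 0.53 in WT and 10.8 ± 0.36 in double-KO cells, where all 3 libraries (10.4 to 11.0) lay above the other 9 (exact permutation p = 0.0128, adjusted p = 0.0230). The ratio of PKP2 to PKP4 was 0.227 ± 0.0066 in WT, 0.252 ± 0.016 in CGN-KO, 0.265 ± 0.030 in CGNL1-KO cells, and 0.179 ± 0.0023 in double-KO cells (exact permutation p = 0.00260, adjusted p = 0.00779).

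Among the plakins, the ratio of PPL to EVPL was 24.4 ± 2.88 in WT, 30.3 ± 4.65 in CGN-KO, 43.1 ± 6.50 in CGNL1-KO cells, and 43.4 ± 1.73 in double-KO cells (exact permutation p = 0.00149, adjusted p = 0.00779). The ratio of DSP to EVPL followed with 22.2, 28.4, 37.2, and 41.4 (p = 0.00208 by the same exact test, adjusted p = 0.00779). The ratio of DSP to PPL varied less, between 0.860 and 0.953 by genotype mean (exact permutation p = 0.0288, adjusted p = 0.0370), and p was above 0.05 without CGNL1-KO replicate 1 (0.0945), CGNL1-KO replicate 2, double-KO replicate 2, or the unnumbered double-KO library. The ratio of DSC2 to DSC3 was 2.42 in WT, 2.05 in CGN-KO, 1.92 in CGNL1-KO cells, and 2.62 in double-KO cells (exact permutation p = 0.0229, adjusted p = 0.0344), with p above 0.05 without the unnumbered double-KO library (0.0575) or CGNL1-KO replicate 1 or 3. PKP2 to PKP3 (exact permutation p = 0.0529, adjusted p = 0.0595, and p = 0.0338 without WT replicate 1) and PKP3 to PKP4 (exact permutation p = 0.743) did not pass.

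**Figure D3:**
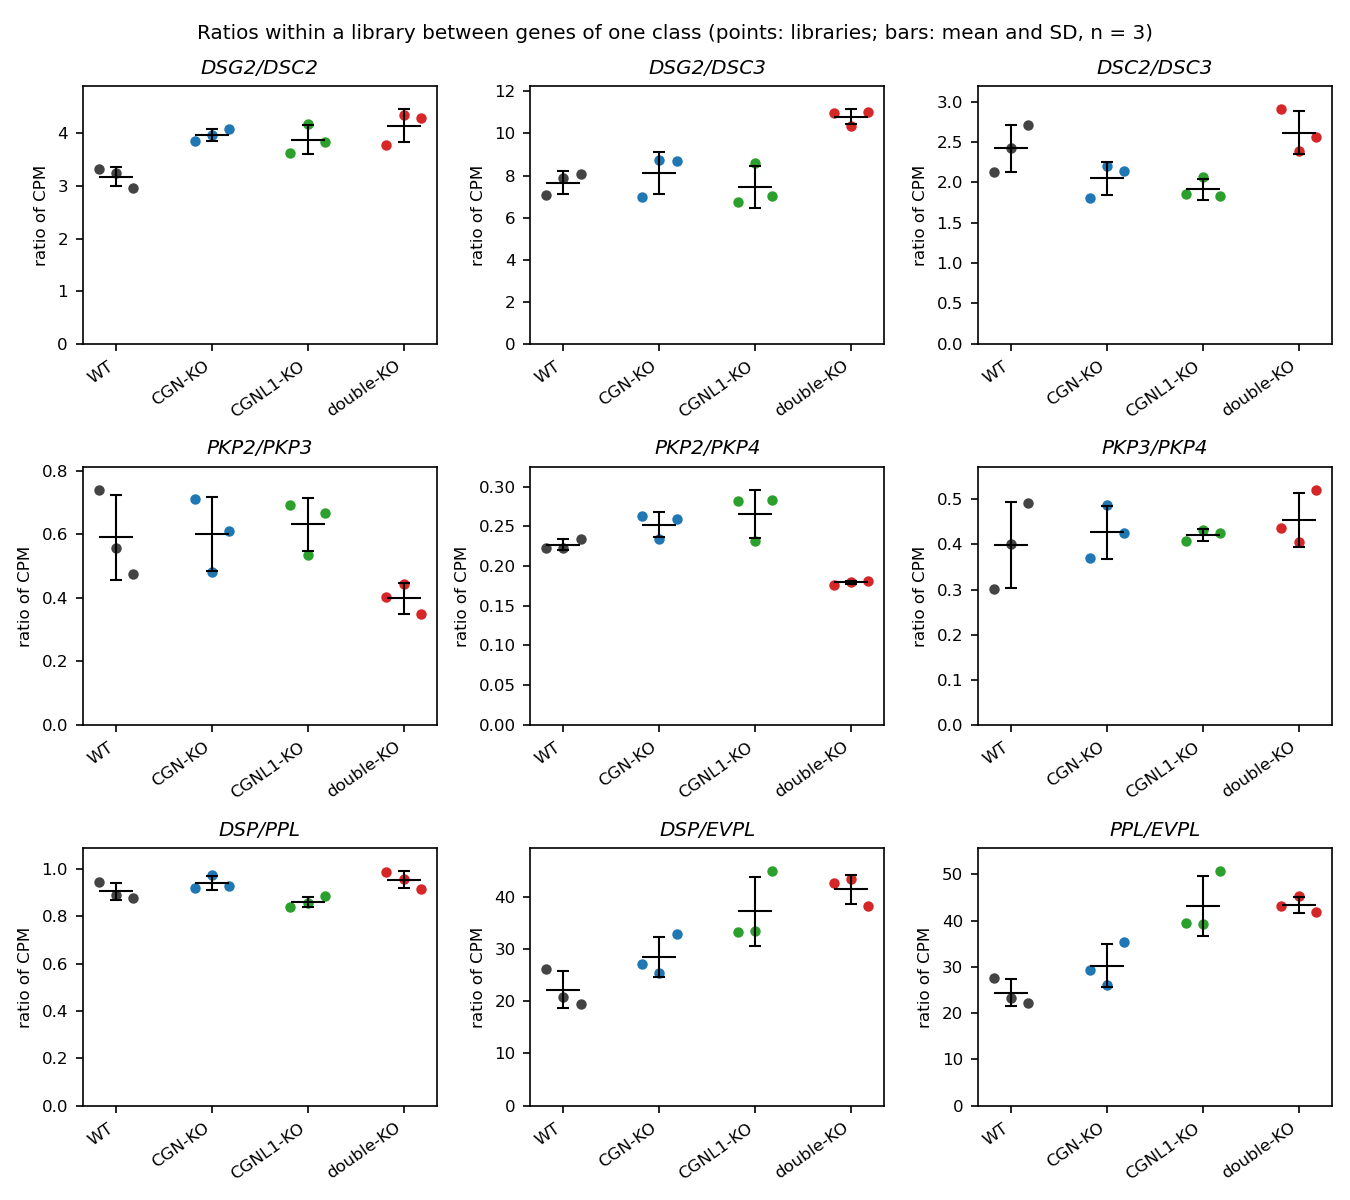
Ratio of reads between desmosome genes of 1 group (vertical axis, no unit) in each library of the 4 genotypes (horizontal axis), with the mean ± SD of 3 libraries, in 9 panels for 9 ratios. DSG2 to DSC2 is higher in all KO libraries than in WT, and PPL to EVPL is 43.1 and 43.4 in CGNL1-KO and double-KO cells against 24.4 in WT.

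Genes next to the desmosome genes were examined in the RefSeq gene order of the dog assembly UU_Cfam_GSD_1.0, which is not the build of the counts and was used for names and order only. The other 397 tested genes on the chromosome that holds PKP3 had a median log2 change of 0.29 in double-KO cells, and 90.4% of them were above 0. In CGN-KO and CGNL1-KO cells the median was 0.088 and 0.050. All 10 of the nearest tested genes, 5 on each side of PKP3, were above 0 in double-KO cells, with a median of 0.38. Of these, 8 passed as higher, beside 14.8% of all genes. Against the median of its chromosome PKP3 was at 0.10 in double-KO cells and no longer passed (adjusted p = 0.533). Its differences from CGN-KO (0.19, adjusted p = 0.326) and CGNL1-KO cells (0.23, adjusted p = 0.189) did not pass on that scale either.

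For PKP4, the other 91 tested genes of its chromosome had medians of -0.11, -0.04, and -0.03 in CGN-KO, CGNL1-KO, and double-KO cells. Against its chromosome's median PKP4 was at 0.22 in double-KO cells (adjusted p = 0.00391) and at -0.14 in CGNL1-KO cells (adjusted p = 0.0852). The 10 nearest tested genes of EVPL had medians of 0.089, 0.063, and 0.032. The ones that passed, 2 in double-KO cells, were higher, beside 14.8% of all genes. The 10 nearest genes of DSP had medians of -0.07, -0.06, and -0.03, whereas DSP itself was above 0 in each genotype.

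The desmosomal cadherin genes lie in 1 cluster, in the order DSG2, DSG3, DSG4, DSG1, DSC1, DSC2, and DSC3, of which DSG4, DSG1, and DSC1 were not listed. DSG3, the desmoglein of stratified epithelia, was at 9.55, 8.17, and 9.70 CPM in WT. It was at 5.93, 5.78, and 6.14 CPM in CGN-KO, at 5.63, 3.97, and 7.38 CPM in CGNL1-KO, and at 3.58 (unnumbered), 4.55, and 3.94 CPM in double-KO cells, from 74 to 203 reads per library. All 9 KO values lay below the WT values. The log2 change was -0.54 (SE 0.15, adjusted p = 0.0176), -0.63 (SE 0.15, adjusted p = 0.0112), and -1.01 (SE 0.15, adjusted p = 0.000113), and the last kept adjusted p below 0.05 without any one library. The CGN-KO call was lost without WT replicate 1 or 3 or CGN-KO replicate 2 (adjusted p up to 0.0645), and the CGNL1-KO call without WT replicate 3 (adjusted p = 0.0512).

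DSG2 thus lies at one end of a cluster whose other listed cadherins, DSG3, DSC2, and DSC3, each fell in double-KO cells. The 11 tested genes that lie within or beside the cluster and are not cadherins had medians of -0.11, -0.18, and -0.18 in the 3 KO genotypes. Of them, 2, 1, and 4 passed as lower, beside 7.87%, 3.49%, and 11.5% of all genes. One of these, B4GALT6, a galactosyltransferase gene on the DSG2 side, had log2 changes of -0.36, -0.48, and -0.45, all of which passed. TAF4B, which encodes a subunit of the general transcription factor TFIID, passed in CGN-KO (-0.42) and double-KO cells (-0.33) and not in CGNL1-KO cells (-0.22). These neighbors were chosen after their values were seen. Whether the neighboring genes share a cause with the cadherins was not tested.

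**Figure D4:**
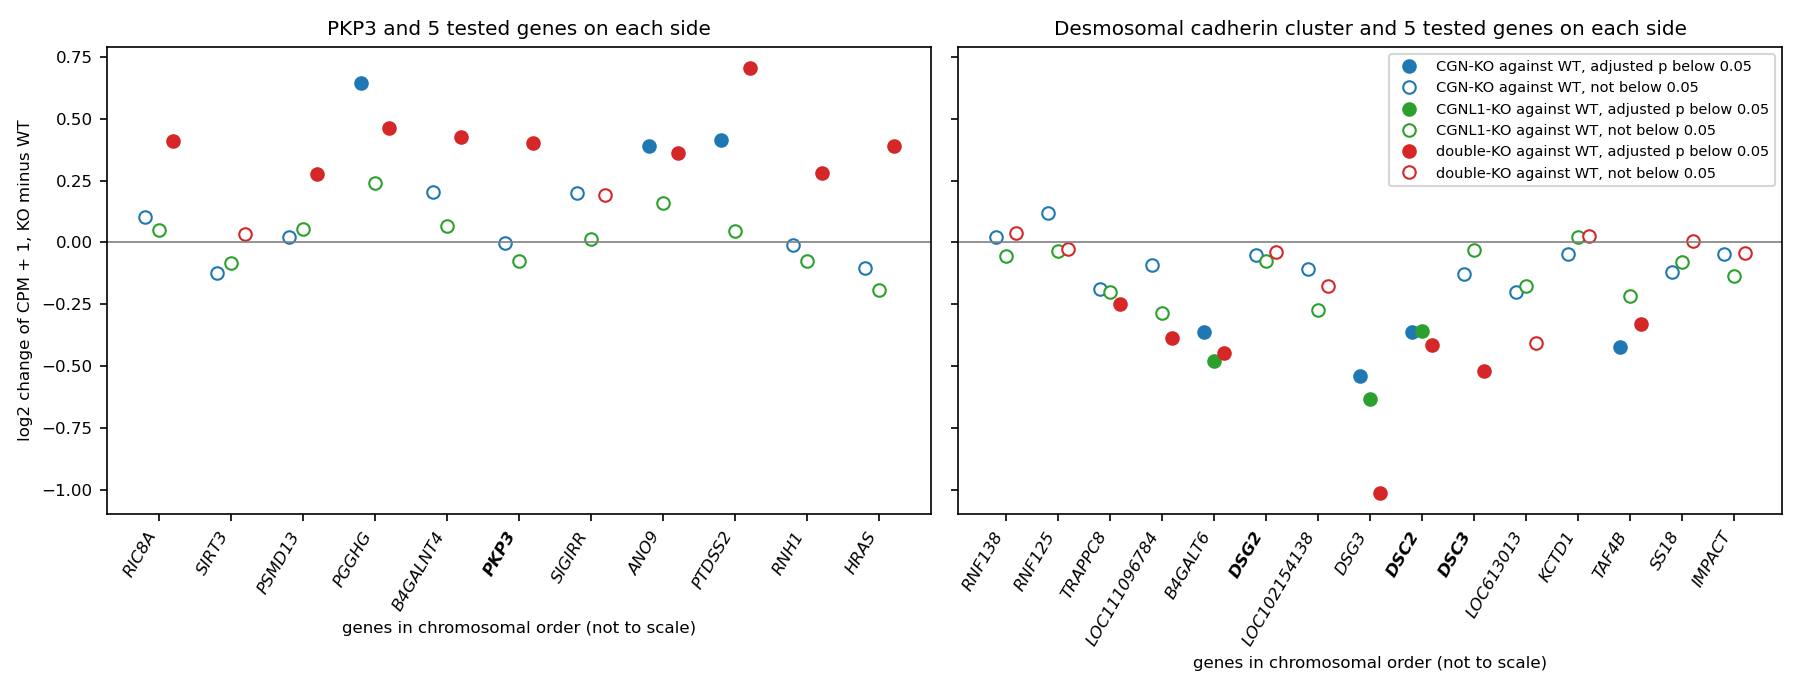
Log2 change against WT (vertical axis) of tested genes in gene order (horizontal axis) for PKP3 with 5 genes on each side and for the desmosomal cadherin cluster with its neighbors, in CGN-KO, CGNL1-KO, and double-KO cells. Around PKP3 all 10 neighbors lie above 0 in double-KO cells, and in the cadherin cluster DSG3 and DSC2 lie below 0 in all 3 genotypes whereas DSG2 lies near 0.

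The desmosome genes did not vary as 1 block. Over the 45 pairs of the 10 genes, Pearson's r of log2(CPM + 1) across the 12 libraries ranged from -0.90 (DSC3 with PKP3) to 0.89 (JUP with PPL), with a median of 0.0040. With the genotype means taken out it ranged from -0.89 (PKP3 with PKP4) to 0.92 (JUP with PPL), with a median of 0.080. DSP and PPL, both plakins, had r = 0.88 and 0.87 on these scales, and DSC3 and PKP2 had r = 0.80 and 0.85. EVPL, also a plakin, had r = 0.071 and -0.075 with DSP and 0.057 and 0.098 with PPL. These values describe 12 libraries that share their scaling, and the libraries of a genotype are not independent of each other.

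The genes whose pattern over the 12 libraries was most like that of a desmosome gene were sought for the 7 genes that differed among genotypes. For PKP3 these were PHRF1 (r = 0.98), HRAS (r = 0.96), and RASSF7 (r = 0.94), which lie 8, 5, and 7 tested genes away from it. The closest genes were LAMC1, a laminin subunit gene, for DSP (r = 0.97), SPRY2, an inhibitor of receptor tyrosine kinase signaling, for DSC2 (r = 0.95), and MUT, a mitochondrial methylmalonyl-CoA mutase gene, for DSC3 (r = 0.96). SMAD4 was closest to PKP4 (r = 0.94), UBL7 to PPL (r = 0.96), and DUSP16, a phosphatase of MAP kinases, to EVPL (r = 0.93). PRKX was among the 3 closest for both DSP (r = 0.95) and PPL (r = 0.93). These r are the highest over all other genes tested, across only 12 libraries, so high values arise by selection. Whether any of these genes are linked was not tested.

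Other genes of desmosomes and their partners were counted in 5 lists, and each count below stands beside the shares of all genes tested, which were 11.2% higher and 7.87% lower for CGN-KO, 6.81% and 3.49% for CGNL1-KO, and 14.8% and 11.5% for double-KO cells. Of 7 further family genes, DSG3 and PERP were listed, and PERP, a membrane protein of desmosomes, had means of 365, 378, 361, and 369 CPM in WT, CGN-KO, CGNL1-KO, and double-KO cells and passed in none of the 3 comparisons. Of the 4 plakin relatives PLEC, DST, MACF1, and EPPK1, 1 passed, DST in CGNL1-KO cells (-0.21, adjusted p = 0.0368). This call was lost with only these genotypes in the fit and without any one of WT replicate 1 or 2, CGNL1-KO replicate 2 or 3, or any double-KO library, with adjusted p up to 0.164 (without WT replicate 2). In CGN-KO and double-KO cells 0 plakin relatives passed with limma, edgeR, or DESeq2, and 0 and 1 were at an unadjusted limma p below 0.05. With only WT and double-KO cells in the fit, 1 passed as higher.

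Keratins are the filaments to which DSP binds. Of 11 keratin and vimentin genes 7 were tested, and 2 were higher and 1 lower in CGN-KO, 2 higher and 0 lower in CGNL1-KO, and 0 higher and 1 lower in double-KO cells. With only WT and double-KO cells in the fit the last count was 2 higher and 2 lower, and with edgeR or DESeq2 it was 0 and 1. The median log2 change of the 7 genes was -0.03, 0.08, and 0.10. KRT14, a keratin of basal epithelial cells, was at 45.8 ± 2.40 CPM in WT, 67.5 ± 8.29 in CGN-KO, 72.4 ± 0.53 in CGNL1-KO cells, and 31.2 ± 2.31 in double-KO cells. Its log2 change was 0.54 (adjusted p = 0.000165), 0.65 (adjusted p = 5.33e-05), and -0.54 (adjusted p = 0.000131), so that it was higher in both single KO genotypes and lower in double-KO cells. KRT19 rose in CGN-KO (0.45, adjusted p = 0.000485) and CGNL1-KO cells (0.36, adjusted p = 0.00577), and KRT18, a keratin of simple epithelia, fell in CGN-KO cells (-0.35, adjusted p = 0.00284).

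Of 6 cadherin and armadillo genes of adherens junctions, 2 were higher and 1 lower in CGN-KO, 2 higher and 0 lower in CGNL1-KO, and 2 higher and 1 lower in double-KO cells, with median log2 changes of 0.07, 0.11, and 0.03. CTNNB1, which encodes β-catenin, the closest relative of plakoglobin, rose in all 3 genotypes, with log2 changes of 0.38 (adjusted p = 0.000658), 0.25 (adjusted p = 0.0210), and 0.21 (adjusted p = 0.0268), whereas JUP did not pass. Without WT replicate 2 the CGNL1-KO and double-KO calls of CTNNB1 were lost (adjusted p = 0.0985 and 0.101). The first was also lost without CGNL1-KO replicate 1 or 3, and the second without WT replicate 3 or any double-KO library. With only WT and CGNL1-KO cells in the fit neither CTNNB1 (adjusted p = 0.0630) nor CDH1 (adjusted p = 0.0814) passed, and the count of higher genes was 0 in place of 2, with 2 at an unadjusted p below 0.05. CDH3, which encodes P-cadherin, fell in CGN-KO (-0.48, adjusted p = 0.000122) and double-KO cells (-0.68, adjusted p = 2.83e-06) and CDH1, which encodes E-cadherin, rose in CGNL1-KO cells (0.25, adjusted p = 0.0218, and 0.101 without CGNL1-KO replicate 3 and 0.0986 without WT replicate 3). ARVCF rose in CGN-KO cells (0.32, adjusted p = 0.00999). CTNND1, which encodes p120-catenin, was higher in double-KO cells (0.22, adjusted p = 0.0182), but against the median of its chromosome its value turned to -0.08. Its call was also lost without WT replicate 2 or 3 or double-KO replicate 2 or 3 (adjusted p up to 0.0937).

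Of 16 genes for the assembly and turnover of desmosomes 15 were tested, and 2 were higher and 1 lower in CGN-KO and 4 higher and 1 lower in double-KO cells. The medians of their log2 changes in the 3 KO genotypes were 0.05, 0.02, and -0.00026. Of the 4 rises, those of PRMT1 and ZDHHC5, named here after their values were seen, were lost with chromosome medians taken out (0.13, adjusted p = 0.238, and 0.048, adjusted p = 0.627). PRKCA, the protein kinase C alpha that regulates how tightly desmosomes adhere, rose in CGN-KO (0.42, adjusted p = 0.00118) and double-KO cells (0.43, adjusted p = 0.000693). GSK3B, a kinase that acts on the DSP tail, rose in the same genotypes (0.33, adjusted p = 0.00294, and 0.42, adjusted p = 0.000355). GRHL2, a transcription factor of epithelial junction genes, fell in double-KO cells (-0.31, adjusted p = 0.00559), and KIF5B, a kinesin motor gene, fell in CGN-KO cells (-0.24, adjusted p = 0.0283, and 0.0746 to 0.136 without WT replicate 2 or 3 or CGN-KO replicate 1). In CGNL1-KO cells 0 of the 15 passed with limma or edgeR and 1 with DESeq2, and 4 were at an unadjusted limma p below 0.05.

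**Figure D5:**
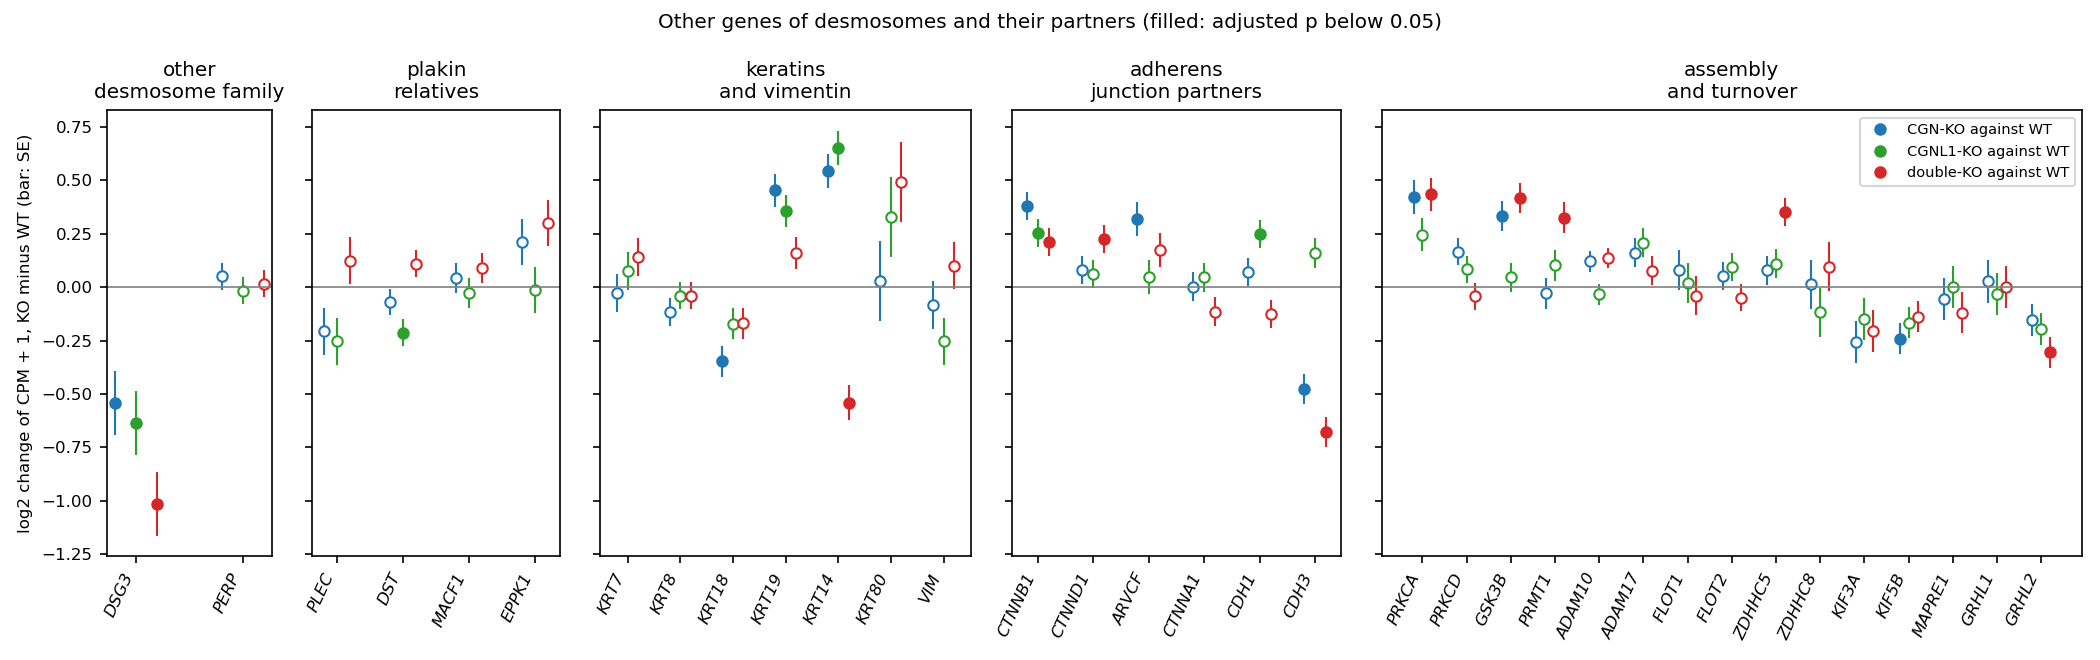
Log2 change against WT (vertical axis, log2(CPM + 1) scale) ± SE of the tested genes of the 5 further lists in CGN-KO, CGNL1-KO, and double-KO cells. KRT14 lies at 0.54 and 0.65 in the single KO genotypes and at -0.54 in double-KO cells, and CTNNB1 lies above 0 in all 3.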

How the data were processed

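RNASeq was performed by the authors on untreated MDCKII cells, with 3 libraries for each of 4 genotypes. Per the labels, reads were aligned to CanFam3.1, and STAR 2.7.0f and HTSeq 0.9.1 are named. The authors deposited normalized counts in CPM for 13672 genes, and these values were treated as a signal because the columns sum to between 976521 and 1035205. All values (100%, tolerance 0.01 reads) were whole multiples of what 1 read is worth in their library, which gave the reads behind each value and the library totals of 16837532 to 30086076 reads. The annotation release and the strand setting of the counting are not given in the sources used here, so genes that overlap on either strand cannot be told apart. The column of 1 double-KO library carries no number and is called unnumbered.

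The 12650 genes that exceeded 1 CPM in 3 or more libraries entered 1 limma fit of the 12 libraries (version 3.58.1, R 4.3.3, lmFit and eBayes with trend) of log2(CPM + 1) values, without a replicate block. Adjusted p are Benjamini-Hochberg values over all genes tested, from limma unless a ratio or another tool is named, with a threshold of 0.05. The log2(CPM + 1) scale understates the change of low genes. Ratios were compared by an exact permutation test over the 15400 ways to divide 12 libraries among 4 genotypes, with a smallest possible p of 6.49e-05. Alternatives were edgeR 4.0.16 and DESeq2 1.42.0 on the recovered reads, other scalings, pseudocounts and filters, chromosome medians taken out, a replicate block, only the genotypes compared, and each library left out. The limma, edgeR, and DESeq2 fits were tested on simulated data.

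Replicate numbers were checked by the correlation of same-numbered libraries' deviations from their genotype means. It was 0.632, 0.475, and 0.179 for CGN-KO with CGNL1-KO libraries, and 0.1 was not exceeded by every pair of any other genotypes. CGN-KO replicate 3 was closer to CGNL1-KO replicate 2 (0.320) than to CGNL1-KO replicate 3. What the numbers mark is not given in the sources used here, so pairing remains uncertain. Levels per coding length were not computed, as no lengths were at hand, so levels are not compared between genes. Named genes are the 10 desmosome genes, CGN and CGNL1, the 3 genes most alike each desmosome gene that differed among genotypes, and for each list up to 2 rises and 2 falls in each comparison with WT, where exceptions are stated in the text. The ratios, their alternatives, the neighboring genes, FN1, the VIM level, and the correlations were chosen after seeing the data. The members and lists were chosen with earlier results of these data known.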

Additional observations from a re-analysis of the deposited data

Results flagged for a closer look

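For 4 desmosome genes the change differed between KO genotypes by a direct test in the fit of all 12 libraries (limma, adjusted p below 0.05). EVPL was higher in CGN-KO than in CGNL1-KO cells (0.57 on the log2 scale) and lower in double-KO than in CGN-KO cells (-0.63). DSC3 was lower in double-KO than in CGN-KO (-0.39) and CGNL1-KO cells (-0.49). PKP4 was higher in double-KO than in CGN-KO (0.32) and CGNL1-KO cells (0.38), and PKP3 likewise (0.41 and 0.48). The PKP3 differences moved with its chromosome and did not pass with chromosome medians taken out. Its difference from CGN-KO cells also lost its call without CGN-KO replicate 1 or 3, double-KO replicate 3, or the unnumbered double-KO library, with adjusted p between 0.0766 and 0.138. The double-KO change departed from the sum of the single KO changes for DSC2 (0.31), PKP4 (0.50), and PPL (-0.31). The part of the WT libraries, which enter each of the last 3 values, was not tested apart from leaving each out.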

How the results depend on the processing

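Of 22 desmosome gene changes and differences that passed, 14 passed in the same direction under every alternative that could be fitted (23, or 22 beyond the sum of the single KO changes) and 0 turned direction under any. The count of desmosome genes that passed stayed within 1.5 times in each alternative run for the comparisons of KO with WT cells, of double-KO with single KO cells, and among the 4 genotypes. The count for CGN-KO against CGNL1-KO cells was 1, and it was 2 with DESeq2, with chromosome medians taken out, with library totals, and with the replicate block, and 0 with only the genotypes compared (2 at an unadjusted p below 0.05). It was between 1 and 2 when single libraries were left out. The replicate block, which had to leave out the unnumbered double-KO library, gave 6 genes for double-KO against WT. The count beyond the sum of the single KO changes was 3, with 5 by DESeq2 and between 1 and 6 without single libraries. Changes close to 0 that did not pass turned direction: DSG2 in double-KO cells was at 0.00078 with chromosome medians taken out, and PKP3 in CGN-KO cells at 0.0097 with library totals. When single libraries were left out, the range against WT was -0.084 to 0.056 for DSC3 in CGNL1-KO, -0.080 to 0.0068 for DSG2 in CGN-KO, -0.0065 to 0.17 for DSP in CGNL1-KO, -0.12 to 0.048 for EVPL in CGN-KO, -0.0041 to 0.092 for JUP in double-KO, -0.026 to 0.10 for PKP2 in CGN-KO, -0.020 to 0.12 for PKP2 in CGNL1-KO, -0.15 to 0.13 for PKP3 in CGN-KO, and -0.22 to 0.052 for PKP3 in CGNL1-KO cells. CTNND1 in double-KO cells was at -0.079 with chromosome medians taken out. The causes of these shifts were not tested. With 3 libraries per genotype and 1 line per KO, small changes of DSG2, JUP, and PKP2 could not be resolved, and EVPL and DSG3 rested on few reads.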
